A study of Mus musculus with 8 samples.

Results

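The Fos family comprises 4 genes in the mouse, Fos, Fosb, Fosl1 and Fosl2, and the c-Jun peaks around them were taken from c-Jun ChIP-seq of 2 cell lines. A peak was assigned to a member when its centre lay within 50 kb of a transcription start site (TSS) of that gene in curated RefSeq transcripts on mm10. This rule took 18 of the 16166 c-Jun peaks of the wild type EpiSC line and 11 of the 6032 peaks of kEpiSCs. All 4 genes had a peak within 50 kb in EpiSCs and 3 of 4 had one in kEpiSCs, the exception being Fos, beside 50.7% and 27.0% of all protein-coding genes.

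EpiSCs are primed pluripotent stem cells taken from the post-implantation epiblast, and the methods of the study derive them from embryos of 129 females crossed with OG2 males, which carry an Oct4-GFP reporter. kEpiSCs are the EpiSC line with an added Klf4 transgene, which is described as under a CAG promoter in the text of the study and as a lentiviral insertion selected with G418 in its methods. From each line came 2 libraries of c-Jun ChIP and 2 of input, 8 in all. The medium held ActivinA and bFGF (both factors at 20 ng/ml), so both lines were held in primed medium when they were fixed. The methods describe EpiSC culture on feeders and also feeder-free culture, the latter in F12/Neurobasal medium with N2, B27 and BSA. Their ChIP section does not say which was used. One peak list was deposited for each line, and it is named in the label of the first ChIP library of that line, and whether the other ChIP library contributed is not stated. The lists hold no value for a single library, hence no difference between the lines could be tested and none is called here. Label and text differ on several points. A CBA/CaJ X C57BL/6J strain is given for the wild type c-Jun ChIP libraries, and H3K27ac is named in the protocol text where the antibody field names c-Jun. Peak lists do not measure expression, so the identity of the cells was not checked on marker genes.

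c-Jun binds DNA as a dimer, with another Jun protein or with a Fos family protein, and such a dimer is the transcription factor AP-1. Its preferred site is TGACTCA, which reads TGAGTCA on the other strand, and Jun proteins paired with ATF or CREB factors prefer the longer TGACGTCA. Fos is the classical immediate early gene, switched on within minutes by growth factors through a serum response element (the CArG box bound by SRF) and a cAMP response element in its promoter. Fosb is a second immediate early gene of this family, whereas Fosl1 (Fra-1) and Fosl2 (Fra-2) are induced later and more durably, and Fosl1 is known as a direct AP-1 target.

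The sequences at the peaks are shown first because the exact AP-1 site divides the regions of each locus. All are read from the plus strand of mm10, 5′ to 3′, with the AP-1 site in capitals. The regions with a peak in both lines that held an exact site were 3 upstream of Fosb and 2 upstream of Fosl1.
Fosb, 6950 bp upstream, chr7:19316983-19317023: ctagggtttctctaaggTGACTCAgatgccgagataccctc
Fosb, 11659 bp upstream, chr7:19321655-19321695: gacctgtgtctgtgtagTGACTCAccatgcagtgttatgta
Fosb, 17294 bp upstream, chr7:19327331-19327371: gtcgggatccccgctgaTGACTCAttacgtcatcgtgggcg
Fosl1, 17723 bp upstream, chr19:5430033-5430073: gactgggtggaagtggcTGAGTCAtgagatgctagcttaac
Fosl1, 14113 bp upstream, chr19:5433524-5433586: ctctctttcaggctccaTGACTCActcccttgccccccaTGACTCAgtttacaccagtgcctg

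Among sites within the peaks, the region 14113 bp upstream of Fosl1 was the one with a pair close together, whose starts are 22 bp apart. In the region 17294 bp upstream of Fosb the site is followed directly by ttacgtca, which has 1 mismatch to TGACGTCA.

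An exact site was also present in 4 regions with a peak in EpiSCs alone, 1 for each member, and in 1 region with a peak in kEpiSCs alone. They are shown because the site is intact in them although a peak was listed in 1 line alone.
Fos, 14208 bp upstream, EpiSC list, chr12:85459629-85459669: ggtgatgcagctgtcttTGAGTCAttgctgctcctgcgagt
Fosb, 3545 bp upstream, EpiSC list, chr7:19313761-19313801: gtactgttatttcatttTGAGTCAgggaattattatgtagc
Fosl1, 1074 bp downstream, EpiSC list, chr19:5448838-5448878: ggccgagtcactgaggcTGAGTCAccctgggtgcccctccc
Fosl2, 620 bp upstream, EpiSC list, chr5:32135837-32135877: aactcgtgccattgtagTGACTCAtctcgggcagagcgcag
Fosb, 39383 bp upstream, kEpiSC list, chr7:19349395-19349435: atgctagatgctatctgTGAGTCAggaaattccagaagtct

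For contrast, 2 prominent peaks had no exact site, and the capitals below mark the word closest to one, with 1 mismatch in both. The first is the strongest peak within 50 kb of Fosl2 and the second lies at the Fosb promoter.
Fosl2, 20991 bp upstream, both lists, chr5:32115399-32115439: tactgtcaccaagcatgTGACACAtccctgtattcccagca
Fosb, 273 bp upstream, EpiSC list, chr7:19310279-19310319: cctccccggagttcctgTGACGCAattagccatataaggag

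The number of c-Jun peaks differed widely among the 4 genes. In the EpiSC list 9 peaks lay within 50 kb of Fosb, 6 of Fosl1, 2 of Fosl2 and 1 of Fos. In the kEpiSC list Fosb and Fosl1 had 5 peaks each, Fosl2 had 1 and Fos had 0. The order was therefore the same in both lists, except that Fosb and Fosl1 were level in kEpiSCs.

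Set beside the 21000 protein-coding genes with a curated TSS, Fosb and Fosl1 stood in the upper tail and Fos and Fosl2 did not. In EpiSCs 50.7% of the genes had at least 1 peak within 50 kb, 29.2% had at least 2 as Fosl2 did, 3.33% had at least 6 as Fosl1 did and 0.79% had at least 9 as Fosb did. In kEpiSCs 27.0% had at least 1 peak, and 0.662% had at least 5 as Fosb and Fosl1 did. The median gene had 1 peak in EpiSCs and 0 in kEpiSCs, and the highest numbers were 19 and 15. Gene density differs between the loci, which bears on which gene a peak is counted for. Within 50 kb of Fosl1 lie the TSSs of 9 other protein-coding genes, and within 50 kb of Fosb those of 5, whereas none lie within 50 kb of Fos or Fosl2. When only peaks with the member as the nearest TSS were counted, Fosl1 had 3 EpiSC and 2 kEpiSC peaks and Fosb had 8 and 3, so the counts at both genes depend on how peaks are assigned, most at Fosl1.

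**Figure D1:**
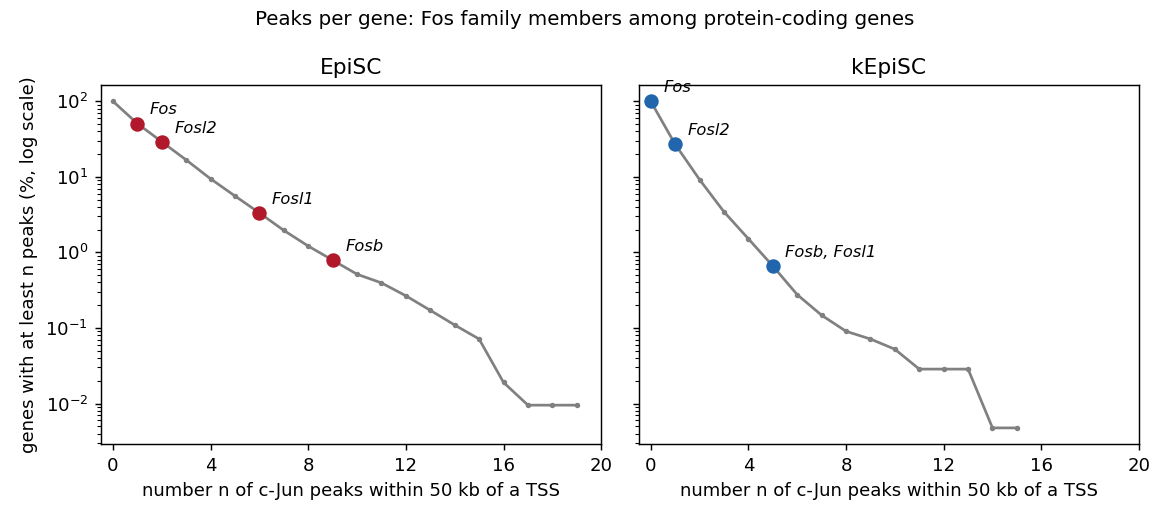
The x axis gives a number n of c-Jun peaks within 50 kb of a TSS and the y axis (log scale) the percent of 21000 protein-coding genes with at least n peaks, for EpiSCs (left) and kEpiSCs (right), with the Fos family members as coloured points. Fosb lies at 9 peaks and 0.79% in EpiSCs, and Fosb and Fosl1 share the point at 5 peaks and 0.662% in kEpiSCs.

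Closer to the start sites, 8 EpiSC peaks lay within 10 kb of a member, 4 at Fosb, 3 at Fosl1 and 1 at Fosl2. In kEpiSCs there were 3, with 2 at Fosl1 and 1 at Fosb. Thus 3 of the 4 genes had a peak within 10 kb in EpiSCs and 2 of 4 in kEpiSCs, beside 21.8% and 8.27% of all protein-coding genes. Most peaks lay on the upstream side, 17 of 18 in EpiSCs and 10 of 11 in kEpiSCs. Over all pairs of a protein-coding gene and a peak within 50 kb, 52.9% in EpiSCs and 53.4% in kEpiSCs had the peak upstream. Most of the upstream family peaks belong to the Fosb and Fosl1 loci, so they are not independent. The 12 further EpiSC peaks within 100 kb lay on both sides. The 2 downstream peaks within 50 kb were the one in Fosl1 intron 1 and a kEpiSC peak within Vasp, near Fosb. No peak of either list therefore had its centre within the body of Fos, Fosb or Fosl2.

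**Figure D2:**
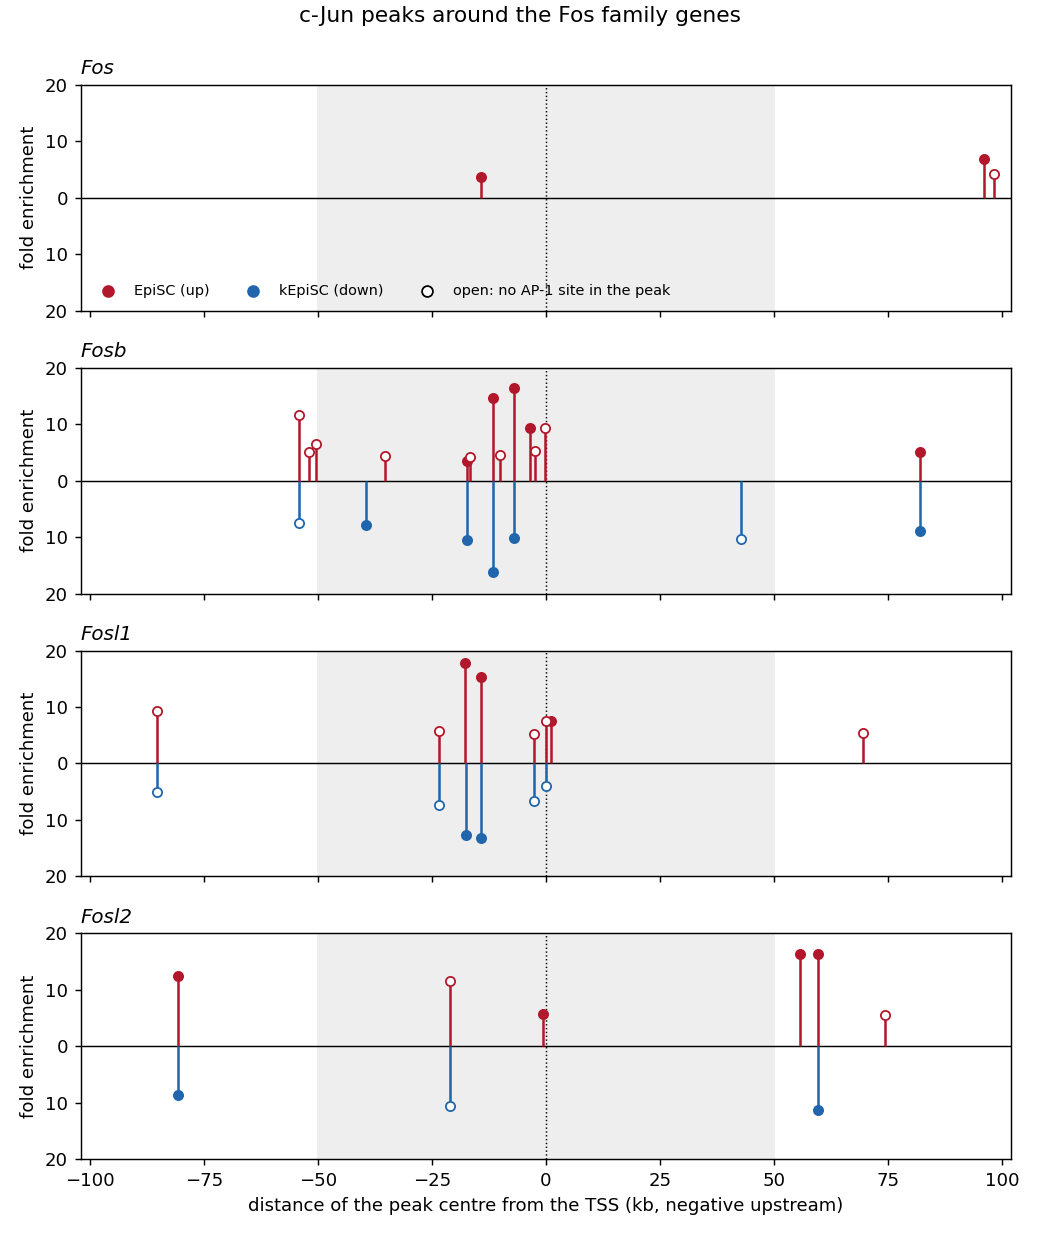
Each panel shows 1 gene, with the distance of the peak centre from the TSS in kb along the gene on the x axis and the fold enrichment at the summit on the y axis, EpiSC peaks drawn upwards and kEpiSC peaks downwards. The grey band is the 50 kb window, filled points have an exact AP-1 site in the peak, and the upstream clusters of Fosb and Fosl1 reach folds of 16.4 and 17.8 in EpiSCs while Fos has a single peak at 3.7.

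Fos itself, the founding member, had the weakest binding of the family. Its only peak was in the EpiSC list, between genes at chr12:85459613-85459751, 14208 bp upstream of the TSS, with a fold enrichment of 3.7. The fold is the authors' ratio of ChIP to local background at the summit after 1 is added to both. Solved from fold and p-value, 6 reads stood at this summit (95% exact Poisson interval 2.2 to 13.1) over a background of 0.89, and 97.4% of the EpiSC peaks ranked above it by q-value. It was thus near the bottom of the list, though it held an exact TGAGTCA centred 25 bp from the summit. The closest kEpiSC peak lay 123833 bp away from it.

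No peak of either list lay within 10 kb of the Fos TSS. The next EpiSC peaks were outside the 50 kb window, 95972 bp downstream with a fold of 6.84 and 98215 bp downstream with a fold of 4.23. Both had Jdp2 as the nearest TSS, which encodes an AP-1 family repressor, at 29243 and 27000 bp.

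The 300 bases around the TSS, from 250 upstream to 50 downstream, were searched in the RefSeq promoter table (GRCm38.p6), in which 3 of the 4 members were matched, the other being Fosl1. TGACTCA or TGAGTCA was in 5.2% of the 32851 promoters, TGACGTCA in 1.79% and the CArG box in 1.63%, on either strand. None of these motifs was found in the windows of Fos, Fosb or Fosl2. The shorter TGACG, the core of a cAMP response element, was in 20.8% of the promoters and was added to the search after the data had been seen. It began 129 and 66 bp before the TSS of Fos and 60 bp before that of Fosb, and was not found for Fosl2. The windows end at 250 bp, so elements further upstream are not covered.

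Fosb had the most peaks of the family, and 8 of its 9 EpiSC peaks formed an array over the first 20 kb upstream of the gene. For all 8 the nearest TSS was that of Fosb. The array began at the promoter with a peak at chr7:19310180-19310456, centred 273 bp upstream of the TSS, with a fold of 9.29 and 14 reads (7.65 to 23.5) over a background of 0.614. It was in the EpiSC list alone, and the closest kEpiSC peak lay 6612 bp away. Among all EpiSC peaks with a fold from 9 to 10, 46.2% overlapped a kEpiSC peak, so a peak of this size present in a single list was common.

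The Fosb promoter peak had no exact AP-1 site. Its sequence, printed above, held TGACGCA and, shortly after it, the letters ccatataagg, which form a CArG box, the serum response element known from immediate early genes. A CArG box was in the central 200 bp of 1 of the 18 EpiSC peaks of the family, this one, and of 0 of the 11 kEpiSC peaks, beside 0.934% and 0.928% of all peaks of the lists. The peaks were searched for the CArG box after this sequence had been seen, and the match is a description of the letters. The peak reached into the RefSeq promoter window of Fosb. The 250 bases of that window upstream of the TSS are shown in the direction of the gene, from the minus strand, with TGACG in capitals.
Fosb promoter, chr7:19310046-19310295: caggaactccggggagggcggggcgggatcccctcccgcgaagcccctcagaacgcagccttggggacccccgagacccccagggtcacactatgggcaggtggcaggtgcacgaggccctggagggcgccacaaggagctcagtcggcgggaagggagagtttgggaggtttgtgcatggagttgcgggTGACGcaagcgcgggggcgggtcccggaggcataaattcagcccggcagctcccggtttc

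The strongest Fosb peaks were 2 regions bound in both lists. The region 6950 bp upstream (chr7:19316712-19317278 in EpiSCs) had a fold of 16.4 with 26 reads (17.0 to 38.1) in EpiSCs and 10.2 with 19 reads (11.4 to 29.7) in kEpiSCs. The region 11659 bp upstream (chr7:19321486-19321922) had 14.6 with 23 reads (14.6 to 34.5) and 16.2 with 29 reads (19.4 to 41.6). The order of the lines was thus opposite at these neighbours, EpiSC higher at one and kEpiSC higher at the other, and the intervals of the reads overlapped at both. The reads of the lists are not on one scale, so this overlap does not show equal binding. Each region held an exact TGACTCA, centred 54 and 46 bp from the EpiSC summit and 8 and 59 bp from the kEpiSC summit. The EpiSC peak 6950 bp upstream held another exact TGACTCA, further from its summit and outside the kEpiSC peak. Of the EpiSC list 1.49% and 2.68% of peaks ranked above the regions 6950 and 11659 bp upstream. Among all EpiSC peaks with a fold from 14 to 18, 89.2% overlapped a kEpiSC peak.

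The third shared Fosb region, 17294 bp upstream (chr7:19327270-19327407), had the most unequal folds of the 9 shared regions, 3.54 in EpiSCs and 10.5 in kEpiSCs. Its reads were less unequal, 12 (6.2 to 21.0) and 18 (10.7 to 28.4). The background behind them was 2.67 reads in the EpiSC list and 0.547 in the kEpiSC list, thus higher where the fold was lower. Its part in the difference was not tested. The middle of the site lay 12 and 9 bp from the summits. This is the region where TGACTCA adjoins the near match to TGACGTCA.

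The other EpiSC peaks of the array were not in the kEpiSC list. At 3545 bp upstream the fold was 9.26 with 13 reads (6.92 to 22.2), and the exact TGAGTCA lay within the peak but outside its central 200 bp. The peaks 2280 and 16551 bp upstream were weak, with folds of 5.19 and 4.23 and 7 reads each (2.81 to 14.4), and had no exact site. At 10076 bp upstream, just beyond 10 kb, 24 reads (15.4 to 35.7) stood over a background of 4.45, which gave a fold of 4.59 although the reads were as many as at the strongest Fosb peaks. The peak at 16551 bp lay 705 bp from the kEpiSC peak of the neighbouring region.

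Further out, peaks counted for Fosb lay in other genes. An EpiSC peak 35161 bp upstream had a fold of 4.32 and was in intron 1 of Ercc1, a DNA repair nuclease subunit, 135 bp from the Ercc1 TSS. A kEpiSC peak 39383 bp upstream, in intron 3 of Ercc1, had a fold of 7.78 with 13 reads (6.92 to 22.2) and an exact TGAGTCA. A second exact site was in its central 200 bp but not wholly within the peak, which was 154 bp wide. A kEpiSC peak 42789 bp downstream, in intron 1 of Vasp, an actin regulator, had a fold of 10.3 with 18 reads (10.7 to 28.4) and no exact site. These were the 2 kEpiSC peaks of the family with no EpiSC peak, and the closest EpiSC peaks lay 4222 and 39293 bp away.

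Just outside the window on the upstream side of Fosb, the EpiSC list had peaks at 50357 bp with a fold of 6.47, 51999 bp with 5.09 and 54021 bp with 11.7, the last also in kEpiSCs with 7.57. The nearest TSS of these was that of Ppp1r13l, at 814, 828 and 2850 bp.

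Fosl1, which encodes Fra-1, had the highest fold of the family in EpiSCs and the most regions in both lists, whereas in kEpiSCs the highest fold was at Fosb (16.2 against 13.2). Of its 6 regions 5 were shared, and all 5 kEpiSC peaks overlapped an EpiSC peak. The region 17723 bp upstream (chr19:5429834-5430115) had a fold of 17.8 with 27 reads (17.8 to 39.3) in EpiSCs and 12.6 with 23 reads (14.6 to 34.5) in kEpiSCs. The region 14113 bp upstream (chr19:5433391-5433778), with its pair of TGACTCA sites, had 15.3 and 13.2, with 23 reads (14.6 to 34.5) in both lists. In kEpiSCs the middle of one of these sites lay 1 bp from the summit. For both regions the nearest TSS was that of AI837181, at 4831 and 8441 bp, so they are counted for Fosl1 by distance alone.

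At the Fosl1 start site a peak spanned the TSS in both lists. In EpiSCs (chr19:5447528-5447821, centred 23 bp upstream) the fold was 7.53 with 10 reads (4.8 to 18.4) over a background of 0.462. In kEpiSCs (chr19:5447552-5447748, centred 48 bp upstream) the fold was 3.95 with 14 reads (7.65 to 23.5) over a background of 2.58. The reads of the lists are not on one scale, since 1 EpiSC read counted as 1 in the fold and 1 kEpiSC read as 0.775. The background was higher where the fold was lower, as at the Fosb region 17294 bp upstream with the lines exchanged. By q-value 31.7% of EpiSC peaks and 96.6% of kEpiSC peaks ranked above it. No exact AP-1 site was present, and the closest word was TGCGTCA.

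Within Fosl1, an EpiSC peak in intron 1 (chr19:5448640-5448903), 1074 bp downstream of the TSS, had a fold of 7.57 with 12 reads (6.2 to 21.0). It held an exact TGAGTCA centred 22 bp from the summit. It was the only peak of the family centred within a member gene and was not in the kEpiSC list, whose closest peak was the one at the TSS, 1122 bp away.

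The remaining shared Fosl1 regions were weaker and without an exact site. At 2502 bp upstream the fold was 5.29 in EpiSCs and 6.69 in kEpiSCs, with 9 and 11 reads. At 23480 bp upstream, in coding exon 3 of Drap1, a subunit of a transcriptional repressor, it was 5.82 and 7.27, with 10 and 13 reads. The next EpiSC peaks beyond the window were 69581 bp downstream with a fold of 5.47 and 85330 bp upstream with 9.23.

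Fosl2, which encodes Fra-2, had few peaks within 50 kb, but its locus held strong ones just beyond. The stronger of its 2 EpiSC peaks (chr5:32115353-32115608, 20991 bp upstream) had a fold of 11.6 with 21 reads (13.0 to 32.1), and 10.5 with 18 reads (10.7 to 28.4) in kEpiSCs. Summits of the lists were 12 bp apart, the smallest shift among the shared regions, and the closest word to an AP-1 site was TGACACA. It was the strongest region of the family without an exact site in the peak.

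The promoter peak of Fosl2 (chr5:32135571-32136133), centred 620 bp upstream of the TSS, was in the EpiSC list alone. Its fold was 5.69 with 14 reads (7.65 to 23.5) over a background of 1.64. It held a TGACTCA centred 76 bp from the summit. The closest kEpiSC peak was the upstream one, 20370 bp away. Among all EpiSC peaks with a fold from 3.5 to 6, 13.4% overlapped a kEpiSC peak.

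Beyond 50 kb of the Fosl2 TSS, EpiSC peaks 55756 and 59642 bp downstream each had a fold of 16.4 and 23 reads (14.6 to 34.5), higher than either peak inside the window. The second of these was also in kEpiSCs, with a fold of 11.3. Upstream, within intron 10 of Babam2, a peak at 80602 bp had 12.4 in EpiSCs and 8.64 in kEpiSCs, and its nearest TSS was that of Fosl2. All 3 held an exact AP-1 site. With GENCODE transcripts, which add a Fosl2 TSS further downstream, Fosl2 had 4 EpiSC peaks and 2 kEpiSC peaks within 50 kb, an alternative chosen after the data had been seen. The count for Fosl2 therefore depended on the annotation, and that for the other 3 genes did not change with it.

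As a group, the family peaks had medians above those of their lists in both lines, with the larger gap in fold in kEpiSCs. The median fold was 6.67 (3.54 to 17.8) beside 6.16 for all EpiSC peaks, and 10.3 (3.95 to 16.2) beside 7.23 for all kEpiSC peaks. The median number of reads was 12.5 beside 10 and 18 beside 14. The median width was 272 bp beside 190 in EpiSCs and 197 bp beside 179 in kEpiSCs. By q-value the median share of the list ranked above was 34.5% beside 49.8% and 15.6% beside 49.9%. These are descriptions of 18 and 11 peaks, of which several share a locus.

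**Figure D3:**
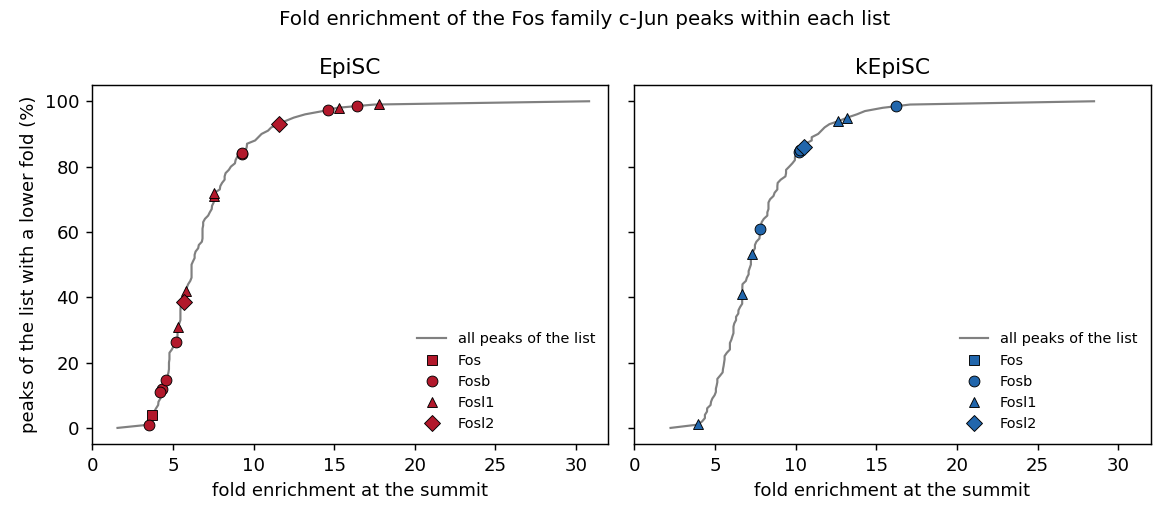
The x axis is the fold enrichment at the summit and the y axis the percent of the list with a lower fold, with all peaks as a grey line and the Fos family peaks as coloured symbols, EpiSCs left and kEpiSCs right. The EpiSC symbols spread from 3.54, a Fosb peak, to 17.8 on a curve that runs from 1.57 to 30.8, and Fos is near the lower end of the symbols at 3.7.

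Exact AP-1 sites were as frequent at the family as elsewhere. TGACTCA or TGAGTCA was in the central 200 bp of 8 of 18 EpiSC peaks (44.4%, 95% Wilson interval 24.6 to 66.3%) beside 45.9% of all EpiSC peaks, and of 6 of 11 kEpiSC peaks (54.5%, 28.0 to 78.7%) beside 58.5% of all. TGACGTCA was in 0 of 18 and 0 of 11, whose intervals reach 17.6% and 25.9%, beside 2.13% and 2.4% of all peaks. With 1 mismatch allowed, 16 of 18 and 11 of 11 had a site, beside 78.3% and 86.4% of all peaks, so this looser word said little about the members.

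Merged over both lists, the peaks of the family made 20 regions, 9 in both lists, 9 in EpiSCs alone and 2 in kEpiSCs alone. Overlap with the other list was 9 of 18 EpiSC peaks (50.0%, 29.0 to 71.0%) beside 28.3% of all EpiSC peaks, and 9 of 11 kEpiSC peaks (81.8%, 52.3 to 94.9%) beside 75.8% of all. The EpiSC list is the longer of the pair, so the shares differ by direction. The intervals treat peaks as independent although several share a locus, so they cannot decide whether either share exceeds that of its list. Over all EpiSC peaks the overlap was 13.4% at folds of 3.5 to 6 and 89.2% at folds of 14 to 18, and the shares were not adjusted for fold. In the shared regions the summits were 12 to 59 bp apart, median 28. The fold was higher in EpiSCs at 5 of the 9 and higher in kEpiSCs at 4. These folds are not on one scale, since 1 ChIP read counted as 1 in EpiSCs and 0.775 in kEpiSCs. At the Fosl1 region 14113 bp upstream, 23 reads in both lists gave folds of 15.3 and 13.2. The EpiSC regions without a kEpiSC peak had folds of 3.7 to 9.29. Shared regions had EpiSC folds of 3.54 to 17.8, so the ranges overlapped. Every shared region above 10 in EpiSCs also passed 10 in kEpiSCs.

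**Figure D4:**
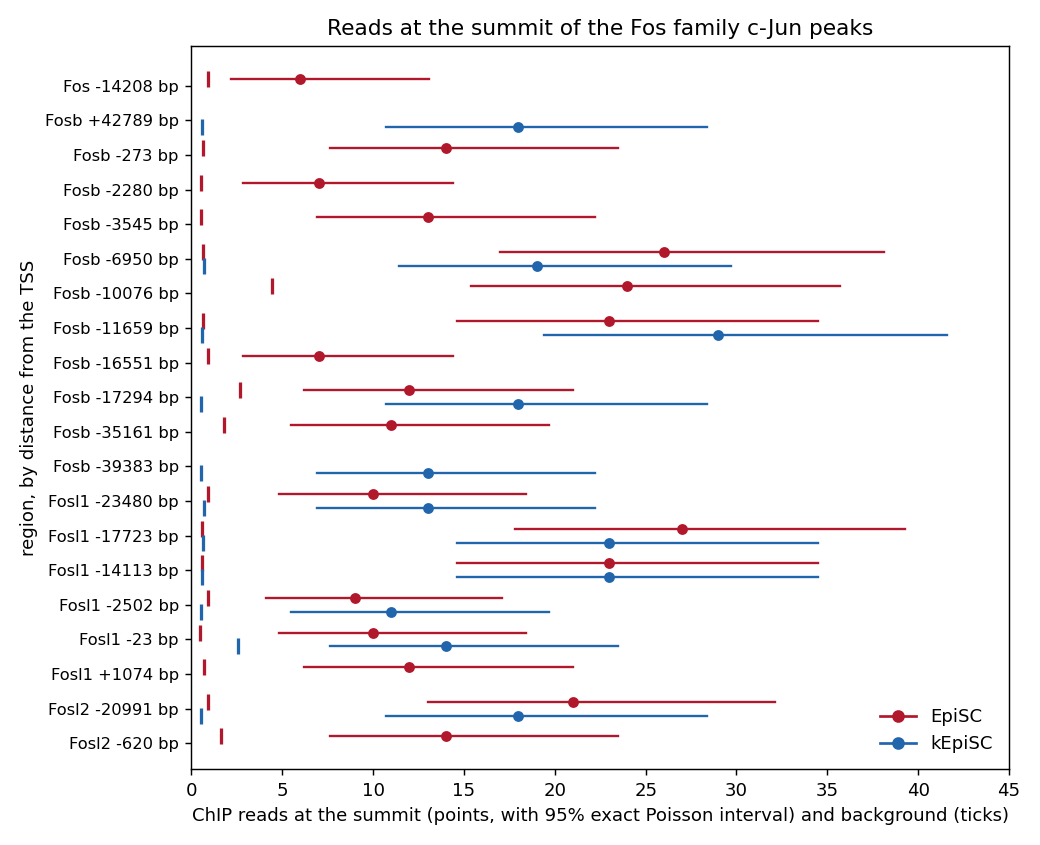
Each row is 1 of the 20 regions, named by gene and distance from the TSS in bp, and the x axis gives the ChIP reads at the summit solved from fold and p-value, as points with 95% exact Poisson intervals, with the background as vertical ticks. Intervals of EpiSCs (red) and kEpiSCs (blue) overlap in each of the 9 shared regions, but the reads of the lists are not on one scale, so this does not show equal binding. The background ticks stand out at Fosb -10076 bp (4.45) and -17294 bp (2.67) in EpiSCs and at Fosl1 -23 bp in kEpiSCs (2.58).

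The partners and regulators of the Fos family were counted in the same way. Of the Jun family, which supplies the partners of Fos proteins in AP-1, 3 of 3 genes had a peak within 10 kb in both lists (21.8% and 8.27% of all genes), with highest folds within 50 kb of 15.9 and 7.82 for Jun, 10.8 and 9.89 for Junb, and 5.76 and 8.03 for Jund in EpiSCs and kEpiSCs. Of the BATF and JDP2 group, which also dimerise with Jun proteins, 4 of 4 had a peak within 50 kb in EpiSCs and 2 of 4 in kEpiSCs, beside 50.7% and 27.0% of all protein-coding genes. Batf reached 10.9 and Batf3 10.6, both with no kEpiSC peak within 50 kb, and Jdp2 reached 7.28 and 8.94. Of 12 factors and kinases that act upstream of Fos, 10 had a peak within 50 kb in EpiSCs and 4 in kEpiSCs, the latter near the 27.0% of all genes. Within 10 kb, 2 of the 4 BATF and JDP2 genes had a peak in EpiSCs and 1 in kEpiSCs. Of the 12 upstream factors, 7 had one within 10 kb in EpiSCs and 1 in kEpiSCs, the latter near the 8.27% of all genes. The genes named from each list are those with the highest folds. The highest were Elk3, a ternary complex factor that acts with SRF, at 16.4 and 12.1, Atf1 at 10.1 and 10.5, and Mrtfa, an SRF coactivator, at 8.48 and 8.89.

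Genes most like each member were ranked by the distance over 4 values, the number of peaks within 50 kb and the highest fold on a log2 scale in the 2 lists. Closest to Fosb were Iqgap1 (0.192), Dock9 (0.222) and Poldip3 (0.238), which had 9, 10 and 8 EpiSC peaks and 5 kEpiSC peaks each. Closest to Fosl1 were Zbtb38 (0.256), Alkbh3 (0.266) and Grsf1 (0.27). Fosl2 was matched by Il22ra1 and Myom3 at 0.00106 and by Alyref2 at 0.0105. Fos shared its values exactly with 83 genes that also had a single EpiSC peak of fold 3.7, of which Abca17, Abl2 and Akt1 come first by symbol, so its pattern was not distinctive.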

How the data were processed

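c-Jun ChIP-seq of EpiSCs and kEpiSCs was used through 1 deposited peak list per line. The authors aligned reads to mm10 (Bowtie2), retained unique alignments and ran MACS2 with its defaults. bcl2fastq, SAMtools and bedtools are further tools in the submitters' processing notes, without versions. Fixation was in 1% formaldehyde (15 min), fragments were 100 to 500 bp, and each ChIP took 2 µg of antibody. Reads per library were not analysed here.

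The deposited values of a peak are the authors' score, which follows the q-value, the fold over local background, the −log10 of the p-value and the −log10 of the q-value. The fold and the p-value were solved for whole reads at the summit, where 1 ChIP read counted as 1 in EpiSCs and 0.775 in kEpiSCs, within 0.02 in −log10 p for 100% of peaks. A higher local background lowers the fold at equal reads. Intervals on reads and shares cover counting error only, and PCR copies are not independent molecules.

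Genes and sequences were taken from RefSeq (GRCm38.p6, equal to mm10), with TSSs of curated transcripts. Exact sites on either strand were counted in the central 200 bp of a peak, and 1 shared bp made an overlap. Named are the 4 members, the gene nearest to a member peak where it is another, up to 3 genes of each related list by highest fold, and the 3 genes most like each member. Other genes beside peaks outside the window were named after their values were seen. Members and lists were chosen with earlier results of these data known. The alternatives changed the distance, the peak position, the gene assignment, the annotation, the peak threshold, the overlap and the motif. The scripts were tested on simulated data. Versions were Python 3.11.15, matplotlib 3.10.9, pysam 0.24.0, pandas 2.3.3, scipy 1.17.1 and numpy 2.4.6.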

Additional observations from a re-analysis of the deposited data

How the results depend on the processing

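The number of family peaks followed the window. It was 8 in EpiSCs and 3 in kEpiSCs within 10 kb, and 30 in EpiSCs within 100 kb, beside 18 and 11 within 50 kb. Counting only peaks whose nearest TSS is that of a member left 6 kEpiSC peaks, and keeping the upper 50% of the EpiSC list by score left 11. With 1 mismatch allowed the share with an AP-1 site was 88.9% in EpiSCs and 100% in kEpiSCs. The other 31 recomputed totals and shares moved by at most 1.5 times or stayed within their intervals, among them the members with a kEpiSC peak, which were 2 in place of 3 within 10 kb. Counts for single genes were less stable, and by the same measure 18 of them moved and 38 did not. The upper 50% of the EpiSC list left 5 peaks at Fosb, 4 at Fosl1, 2 at Fosl2 and 0 at Fos. GENCODE transcripts, an alternative chosen after seeing the data, gave 20 and 12 peaks. No paired analysis was possible because the lists are 1 per line without a value for any single library, which also kept replicates from being left out in turn. With 6 to 29 reads at a summit, absence from a list says only that no peak passed the threshold at this depth.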
